A study of Mus musculus with 2 samples.

Results

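The co-inhibitory receptors and ligands described here are 10 genes of the 28482 in the count matrix, taken by name: Pdcd1, Cd274, Pdcd1lg2, Lag3, Havcr2, Tigit, Btla, Cd200, Cd200r1 and Vsir. All 10 have a row. Their transcripts were followed across T cell subsets and antigen-presenting cells of the inflamed spinal cord. The 4 mice were C57BL/6 animals with experimental autoimmune encephalomyelitis (EAE), a T cell-driven inflammation of the central nervous system used as a model of multiple sclerosis. CD45+ cells, which are leukocytes and microglia, were taken from their cords 15 days after the disease was induced. Both groups carried the disease: 2 mice were untreated and 2 were inhibitor-treated, and no source used here gives the inhibitor's name, target or dose, the age and sex of the mice or the induction protocol. Each mouse was marked with its own antibody hashtag, and the cells were pooled on 1 BD Rhapsody run, so the 4 mice share 1 library. The series' title names WT and STAP-1 mice, but no genotype beyond C57BL/6 is given for these 4. With no statement beyond the replicate number on how the mice were housed or treated, p-values measure the spread between these mice.

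Co-inhibitory receptors restrain lymphocytes and myeloid cells that are already activated, and many of them are themselves switched on by activation. PD-1, encoded by Pdcd1, is engaged by PD-L1 (Cd274) and PD-L2 (Pdcd1lg2). LAG-3 (Lag3) binds MHC class II, TIM-3 (Havcr2) marks interferon-gamma-producing helper T cells and many myeloid cells, and TIGIT (Tigit) competes for nectin-family ligands. BTLA (Btla) binds the TNF receptor family protein HVEM, CD200 (Cd200) calms cells that carry CD200R1 (Cd200r1), and VISTA (Vsir) acts on both T cells and myeloid cells. In EAE the PD-1 and CD200 pathways are known as brakes on the disease.

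After filtering, 19256 cells remained, of which the untreated mice gave 4313 and 4563 and the treated mice 5463 and 4917. Their counts summed to 49254375 and 54066503 against 62001811 and 58525490, and the median cell had between 8249 and 8615 counts. The cells formed 24 clusters, which were found without using the 10 genes and were named from marker genes. Each class name below stands for cells that resemble that type in those markers. CD4 T cells were 2 clusters, a large one of 3954 cells led by Cd40lg, Cxcr6 and Trat1, and a small one of 500 cells led by Nrgn, Rgs16, Lta, Tnfsf11, Nr4a3 and Ifng, genes of recently stimulated T cells. Levels are given as CPM, the gene's count scaled to 1000000 counts of the mouse's cells of that class. They compare classes for 1 gene and not genes with each other, since gene length was not taken into account. Values stand in the order untreated mouse 1, untreated mouse 2, treated mouse 1, treated mouse 2, and the order of classes is a description without a test.

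Transcripts of other cell types were present in every class. The summed level of 5 T cell receptor complex genes (Trac, Trbc2, Cd3e, Cd3d and Cd3g) was 4915 to 5273 CPM in CD4 T cells. In microglia it was 801.2, 1780.5, 174.7 and 394.9 CPM, with a count of any of these genes in 61.0% of cells and none of the 5 genes at 0. It was 75 to 106 CPM in neutrophils. These T cell transcripts in microglia were lower in both treated mice, and the treatment values in microglia and in monocytes and macrophages are given below also without the cells that held them. The summed level of 6 microglia genes in microglia was 16572, 12091, 21384 and 18266 CPM, higher in both treated mice.

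The genes lie in 4 places of their own and 2 groups. In GRCm38 coordinates, Cd274 (chr19:29367455-29388095) and Pdcd1lg2 (chr19:29410919-29471161) are neighbours on the plus strand, 22.8 kb apart. Tigit (chr16:43648867-43664146, minus strand), Cd200r1 (chr16:44765736-44794978, plus strand), Btla (chr16:45224315-45257670, plus strand) and Cd200 (chr16:45382135-45409053, minus strand) lie within 1.76 Mb of chromosome 16. Pdcd1 is at chr1:94038305-94052553, Lag3 at chr6:124904361-124911705, both on the minus strand, and Havcr2 at chr11:46454935-46481255 and Vsir at chr10:60346851-60372684 on the plus strand. Cd274, Pdcd1lg2 and Vsir overlap an annotated gene on the other strand (AC119228.1, A930007I19Rik and Cdh23), and no source used here says whether counting used strand. Cd200r1 has close relatives (Cd200r2, Cd200r3, Cd200r4) with which it could share reads.

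Promoter windows, from 250 bases before to 50 bases after the start site, were found for 8 of the 10 genes in RefSeq (GRCm38.p6); Lag3 and Cd200r1 are named only. Those of Pdcd1, Tigit and Havcr2 are shown because these receptors differed between gated CD4 T cells below. Each reads 5′ to 3′ on the gene's own strand, with every match to the RUNX core TGTGGT on either strand (its reverse complement reads ACCACA) in capitals; that of Pdcd1 holds no match. The windows are chr1:94052504-94052803 on the minus strand, chr16:43664135-43664434 on the minus strand and chr11:46454681-46454980 on the plus strand.

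Pdcd1: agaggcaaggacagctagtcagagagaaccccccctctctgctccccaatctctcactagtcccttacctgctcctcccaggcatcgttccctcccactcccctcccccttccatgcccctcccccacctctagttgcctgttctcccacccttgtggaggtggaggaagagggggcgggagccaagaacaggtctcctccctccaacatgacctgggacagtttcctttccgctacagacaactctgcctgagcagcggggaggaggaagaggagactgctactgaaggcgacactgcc

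Tigit: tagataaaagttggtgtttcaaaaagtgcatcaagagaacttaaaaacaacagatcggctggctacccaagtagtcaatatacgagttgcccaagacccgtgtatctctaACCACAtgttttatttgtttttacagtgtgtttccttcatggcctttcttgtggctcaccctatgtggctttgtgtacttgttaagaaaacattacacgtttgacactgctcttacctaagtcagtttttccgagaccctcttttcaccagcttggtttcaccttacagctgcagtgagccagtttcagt

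Havcr2: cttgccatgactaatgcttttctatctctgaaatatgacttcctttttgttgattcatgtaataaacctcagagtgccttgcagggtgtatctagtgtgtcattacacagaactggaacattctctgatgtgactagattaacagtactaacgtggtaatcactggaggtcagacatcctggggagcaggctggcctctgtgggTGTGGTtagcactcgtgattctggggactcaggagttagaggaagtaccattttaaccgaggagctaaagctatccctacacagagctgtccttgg

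The RUNX core was found in 4 of the 8 windows (Btla, Havcr2, Pdcd1lg2 and Tigit) and in 16.8% of 32851 promoter windows of that length in the RefSeq table. In Havcr2 it starts 46 bases before the start site and in Tigit 140 bases before. The NFAT core TGGAAA was in 0 of the 8 windows and in 21.4% of all windows, and GAAA followed by any 2 bases and GAAA again, a spacing of interferon response elements, was in 0 of 8 and in 3.4%, each on both strands. These are letter matches only.

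The PD-1 ligand Cd274, an interferon-induced gene of antigen-presenting cells, was spread over many classes. Mature B cells had 77.9, 109, 74.3 and 120 CPM, the highest mean of the named classes (95.2 CPM). Gamma-delta T cells had 72.4, 86.7, 64.9 and 39.7 CPM. Conventional dendritic cells had 71.8, 51.8, 24.8 and 75.2 CPM. The ranges of these classes overlapped over the 4 mice. Regulatory T cells (50 to 73.6 CPM), microglia (32.6 to 76.3 CPM) and CD8 T cells (34.7 to 64.2 CPM) were in the same range, whereas the 4 neutrophil values lay between 10.3 and 12.4 CPM, below every mouse of these 6 classes. After each cell was thinned to 2000 counts, Cd274 had a count in 11.1% of mature B cells, 10.7% of conventional dendritic cells, 8.31% of microglia and 2.31% of neutrophils.

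The other PD-1 ligand, Pdcd1lg2, known from activated dendritic cells and macrophages, had its highest class means in T cells here. The Nrgn and Lta cluster of CD4 T cells had 87.4, 50.8, 43.7 and 45.9 CPM, and regulatory T cells 46.1, 30.8, 52.1 and 42.7 CPM, overlapping each other. The Cd40lg cluster had 4.37 to 12.6 CPM, below every mouse of both. Conventional dendritic cells had 21.0, 16.5, 4.13 and 19.6 CPM and microglia 0.3 to 4.65 CPM, while NK cells ranged from 2.59 to 57.5 CPM. Thinned to equal depth, 6.6% of the Nrgn and Lta cluster, 3.87% of regulatory T cells and 0.13% of neutrophils had a count.

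Cd200, the ligand that restrains CD200R1-bearing myeloid cells, was at 36.9, 36.8, 43.9 and 40.8 CPM in plasmacytoid dendritic cells. Mature B cells followed with 49.0, 37.6, 29.4 and 29.98 CPM, and the Nrgn and Lta cluster with 38.6, 36.6, 41.2 and 20.9 CPM. These ranges overlapped, and leaving out the treated mouse 1 put mature B cells ahead of plasmacytoid dendritic cells. The Cd40lg cluster had 2.44 to 8.0 CPM, and microglia and monocytes and macrophages at most 1.7 CPM. At equal depth the share was 6.32% in plasmacytoid dendritic cells, 3.99% in mature B cells and 0.04% in neutrophils.

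Within conventional dendritic cells, those with a count of both Ccr7 and Fscn1, genes of dendritic cells that mature and migrate to lymph nodes, were set apart. Only 7, 9, 1 and 12 such cells were found, a subset taken after the data had been seen, and the value of the treated mouse 1 is that of a single cell. Cd274 was at 344, 213, 886 and 303 CPM in them against 60.2, 37.6, 15.7 and 55.3 CPM in the other conventional dendritic cells. Cd200 was at 82.0, 107, 1575 and 287 CPM against 11.5, 17.5, 7.31 and 9.04 CPM. Both ligands were higher in these cells in every mouse, with no overlap between the 2 sets. The third ligand, Pdcd1lg2 (32.8, 106.7, 0 and 12.5 against 20.5, 8.54, 4.18 and 20.2 CPM), was higher in 2 of the 4 mice. Btla (287, 63.0, 492 and 149.7 against 136, 104, 70.0 and 124 CPM) was higher in 3 of the 4 mice. Havcr2, Cd200r1, Lag3 and Vsir read lower in these cells in every mouse. The single cell of the treated mouse 1 held 10158 counts, so genes at these levels can read 0 there. That mouse therefore adds little to the lower values. Havcr2 had no count in 3 mice and 12.5 CPM in the treated mouse 2, against 47.7 to 82.5 CPM in the other dendritic cells, and Cd200r1 had 1 count in all, against 32.4 to 45.9 CPM. Lag3 was at 0, 9.7, 0 and 16.6 against 23.3, 92.7, 34.5 and 33.6 CPM, and Vsir at 73.8, 72.7, 0 and 62.4 against 122, 146.5, 229 and 107 CPM. T cell receptor complex genes summed to 1065.5, 1662.7, 0 and 1305.4 CPM in these few cells, and their part in the values was not tested.

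**Figure D1:**
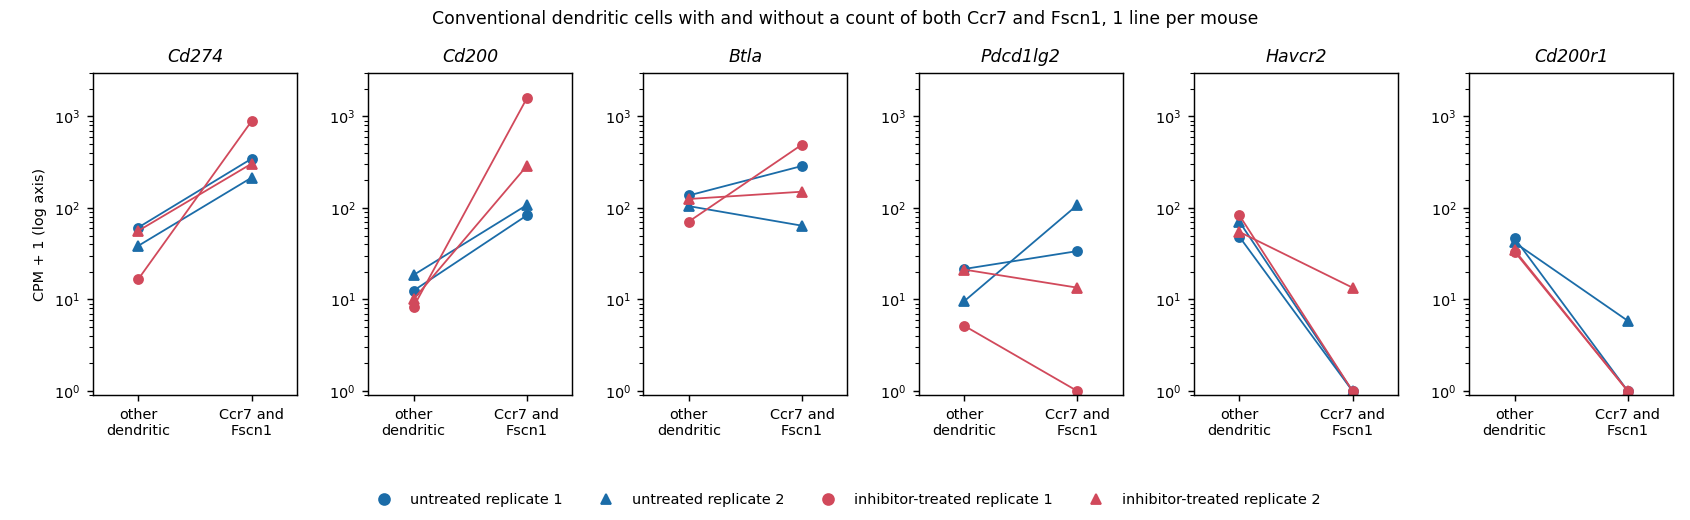
Level (CPM + 1, log axis) of 6 genes in conventional dendritic cells with a count of both Ccr7 and Fscn1 (right) and in the others (left); each line is 1 mouse, and the right-hand values rest on 7, 9, 1 and 12 cells. Cd274 and Cd200 lie higher on the right in all 4 mice and Havcr2 and Cd200r1 lower.

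Among the receptors, Pdcd1 followed the T cells. The Nrgn and Lta cluster had 119, 88.6, 70.4 and 109 CPM, regulatory T cells 66.6, 76.7, 49.3 and 77.6 CPM, and CD8 T cells 55.9, 34.7, 36.3 and 77.2 CPM. Neighbours in this order overlapped, but every mouse's value in the Nrgn and Lta cluster was above every value in the Cd40lg cluster (37.0, 24.3, 16.04 and 22.2 CPM). Microglia had 11.2, 18.3, 10.3 and 26.7 CPM, mature B cells at most 1.98 CPM and neutrophils 0.09 to 0.55 CPM. A count remained at equal depth in 12.2% of the Nrgn and Lta cluster, 7.43% of regulatory T cells, 5.1% of CD8 T cells, 2.93% of the Cd40lg cluster and 0.06% of neutrophils. In microglia without T cell receptor transcripts Pdcd1 remained at 7.53, 7.89, 10.1 and 16.95 CPM. In conventional dendritic cells without them it had 0, 0, 0 and 2.72 CPM, against 4.67, 12.6, 1.03 and 6.32 CPM in all of them.

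Tigit, which binds nectin-family ligands on antigen-presenting cells, was highest in regulatory T cells at 65.6, 95.9, 84.5 and 64.1 CPM. No mouse of any other class reached this range: the Nrgn and Lta cluster had 25.9 to 46.1 CPM, NK cells 19.2 to 34.8 CPM and the Cd40lg cluster 12.7 to 29.8 CPM. The thinned share was 9.91% in regulatory T cells and 0.70% in neutrophils. Of its nonzero values 52.4% were single counts.

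Lag3 had its highest levels outside the T cells. Microglia had 362, 497, 747 and 624 CPM, and plasmacytoid dendritic cells, a type in which LAG-3 is well known, 622, 518, 529 and 504 CPM. These classes overlapped, and without either treated mouse, or with doublet calls kept, plasmacytoid dendritic cells rather than microglia had the higher mean. Among T cells, the Nrgn and Lta cluster had 294, 399, 274 and 331 CPM, above every mouse of regulatory T cells (101, 153, 186 and 188 CPM), which in turn lay above the Cd40lg cluster (30.1, 49.1, 38.9 and 45.6 CPM). At equal depth Lag3 had a count in 49.9% of plasmacytoid dendritic cells, 46.6% of microglia, 28.6% of the Nrgn and Lta cluster, 12.7% of regulatory T cells and 1.13% of neutrophils. For every 100 counts of the T cell gene Trac there were 6.39 to 10.1 counts of Lag3 in CD4 T cells, 143 to 2191 in microglia and 1654 to 5581 in plasmacytoid dendritic cells.

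Havcr2, which marks interferon-gamma-producing T cells and is also carried by microglia and dendritic cells, was highest in microglia at 165, 127, 225 and 168 CPM. These values lay above those of every other class. The Nrgn and Lta cluster had 67.5, 66.2, 55.8 and 58.4 CPM and conventional dendritic cells 45.7, 64.4, 81.6 and 50.6 CPM, overlapping each other, and the Cd40lg cluster had 5.83 to 16.4 CPM. The thinned share was 21.0% in microglia, 8.80% in the Nrgn and Lta cluster, 7.35% in conventional dendritic cells and 0.46% in neutrophils.

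Btla, the receptor for HVEM on B cells, dendritic cells and T cells, was at 151, 222, 203 and 123 CPM in mature B cells and 142, 100.5, 74.4 and 126 CPM in conventional dendritic cells, which overlapped. Plasmacytoid dendritic cells had 30.6 to 64.0 CPM, below both. T cell classes were low, with 4.51 to 33.8 CPM in regulatory T cells and 11.9 to 19.9 CPM in the Cd40lg cluster. The thinned share was 19.3% in mature B cells, 17.65% in conventional dendritic cells and 0.08% in neutrophils.

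Cd200r1, the receptor for CD200, was detected in T cells, dendritic cells and other myeloid cells. The Nrgn and Lta cluster had 49.4, 54.1, 31.5 and 47.3 CPM, regulatory T cells 24.6, 46.6, 47.9 and 59.4 CPM, and conventional dendritic cells 44.1, 38.1, 32.03 and 30.9 CPM. Their ranges overlapped. Microglia, a type in which CD200R1 is often described, had 12.6, 17.4, 14.2 and 14.6 CPM, and neutrophils 16.9 to 19.9 CPM. Mature B cells had at most 5.94 CPM and B cell precursors at most 1.5 CPM, below every neutrophil value. The thinned share was 6.81% in regulatory T cells, 6.30% in conventional dendritic cells, 3.55% in CD4 T cells and 2.66% in neutrophils. Without cells holding transcripts of the other type, conventional dendritic cells rather than regulatory T cells had the higher mean of the classes compared.

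Vsir, which acts on T cells and myeloid cells, was highest in microglia and neutrophils. Microglia had 726, 600, 1160 and 808 CPM and neutrophils 727, 641, 709 and 732 CPM, overlapping each other and lying above every other named class; the unnamed Clu and Mobp cluster of 85 cells had 533 to 695 CPM. Monocytes and macrophages had 255, 329, 363 and 322 CPM, regulatory T cells 227, 318, 369 and 277 CPM, and CD4 T cells 215, 225, 199 and 215 CPM. Mature B cells were lowest of the tested classes at 55.3, 44.9, 23.2 and 60.0 CPM, below every mouse of the others. Thinned cells with a Vsir count made up 67.0% of microglia, 61.6% of neutrophils, 30.8% of regulatory T cells and 5.76% of mature B cells.

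**Figure D2:**
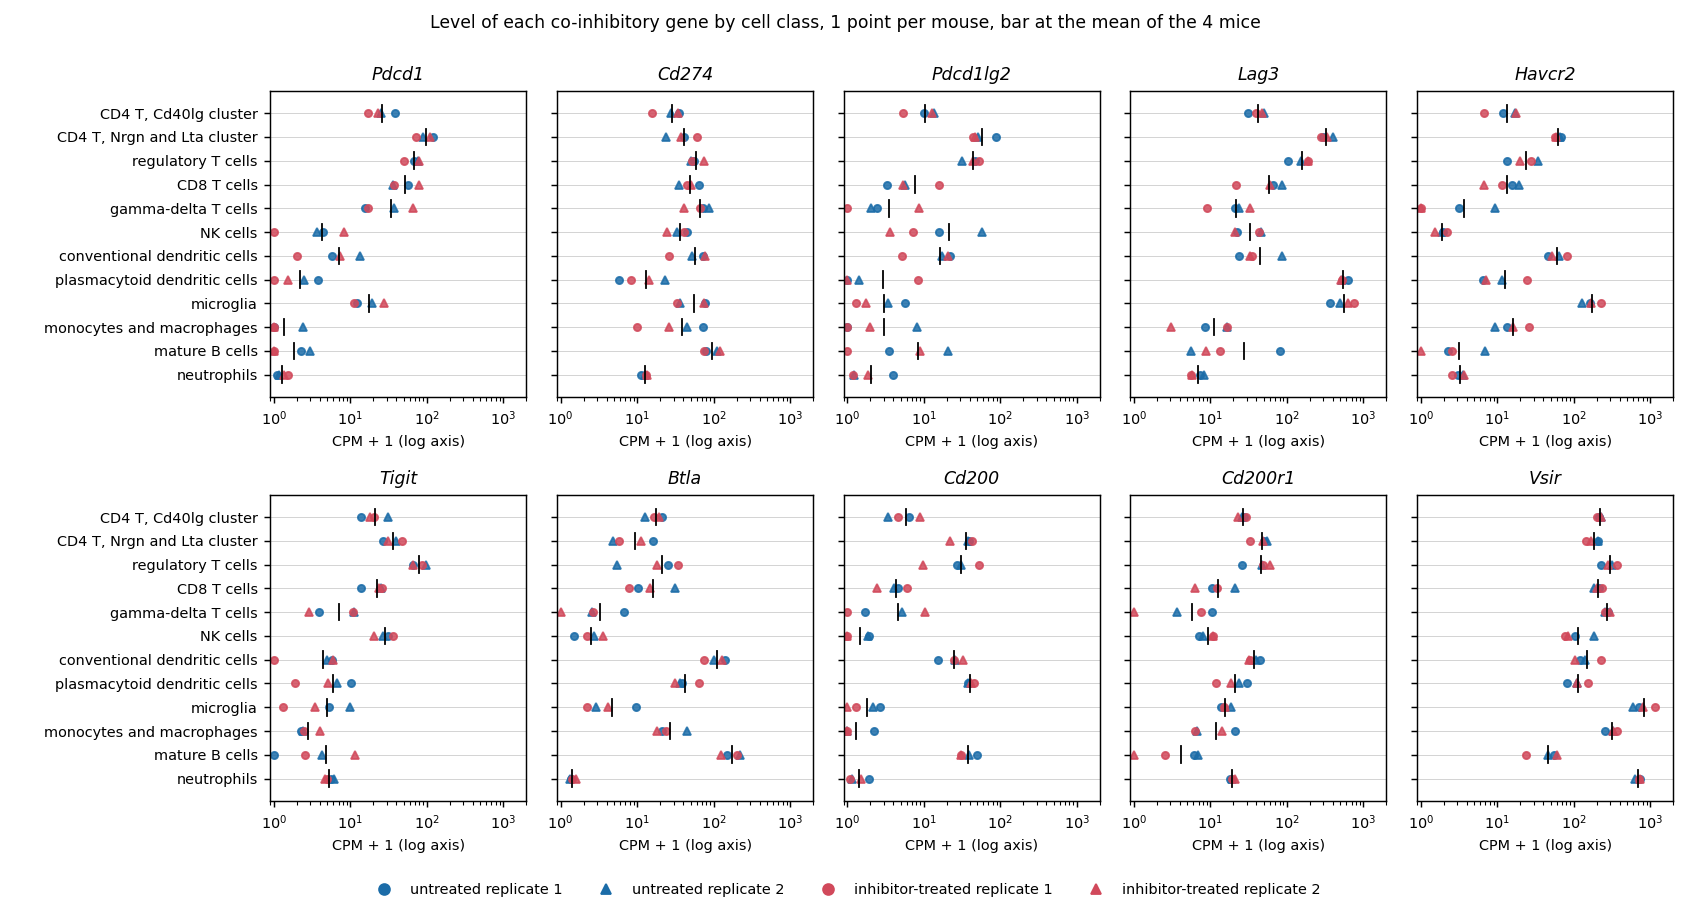
Level (CPM + 1, log axis) of the 10 genes in 12 cell classes; each point is 1 mouse (blue untreated, red treated, circle replicate 1, triangle replicate 2) and the bar is the mean of the 4 mice. Lag3, Havcr2 and Vsir are high in microglia, Tigit in regulatory T cells, Btla in mature B cells and conventional dendritic cells, and Pdcd1, Lag3 and Havcr2 are higher in the Nrgn and Lta cluster than in the Cd40lg cluster in every mouse.

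Most T cells had no count of any of Pdcd1, Lag3, Tigit and Havcr2 at an equal depth of 2000 counts. Of 4454 CD4 T cells, 85.3% had none, 13.1% had 1 of the 4 receptors, 1.32% had 2 and 0.22% had 3, and no cell had all 4. In the Nrgn and Lta cluster 53.6% had none, 39.4% had 1, 5.60% had 2 and 1.4% had 3 (500 cells). Regulatory T cells stood between, with 72.8%, 22.3%, 4.64% and 0.31% (646 cells). The share of cells with none was lower in the Nrgn and Lta cluster (49.3% to 65.9% over the mice) than in the Cd40lg cluster (87.7% to 93.0%) in every mouse. These are shares of cells with a detected transcript and not of cells that lack the protein.

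Lag3 was detected more often in cells with another receptor in some populations and not in others. Among all CD4 T cells, Lag3 had a count in 13.6% of 177 cells with Pdcd1 and in 7.0% of 4277 without, higher in all 4 mice. Within the Nrgn and Lta cluster alone it was 24.6% of 61 cells with and 29.2% of 439 without Pdcd1. Within the Cd40lg cluster it was 7.8% of 116 against 4.5% of 3838, not higher in every mouse. Lag3 with Tigit was 19.3% of 140 cells against 6.9% of 4314 in all CD4 T cells. Within the Cd40lg cluster it was 14.9% of 114 against 4.3% of 3840, and it was higher in all 4 mice in both. Within the Nrgn and Lta cluster it was 38.5% of 26 cells with and 28.1% of 474 without Tigit, not higher in every mouse. These shares are descriptions, and the cells with a count had been sequenced somewhat deeper before thinning (median counts 7632 with and 6764 without Pdcd1).

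To compare helper subsets by a transcript rather than by clustering, T cells were gated on genes that define these subsets. The genes were Foxp3, the lineage factor of regulatory T cells, and Il17a, the cytokine of Th17 cells. Ifng or Csf2, effector cytokines of T helper cells that drive EAE, formed another gate. The Foxp3 gate took cells of the CD4 and regulatory T cell clusters, and the other gates cells of the CD4 clusters only. The Ifng or Csf2 gate left out cells with a count of Il17a or Foxp3, and the Il17a gate made no such exclusion. Counts were summed per mouse and gate and tested with edgeR's quasi-likelihood test with the mouse as a block, and p-values were adjusted by Benjamini-Hochberg over all genes tested. The cells of the Ifng or Csf2 gate and of the Il17a gate were compared with the same cells, those with no count of Il17a, Ifng, Csf2 or Foxp3, so these comparisons share their controls.

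Foxp3-positive CD4 T cells had more Tigit, Pdcd1 and Lag3 than Foxp3-negative ones, with 141, 209, 58 and 111 positive cells in the 4 mice. Tigit was at 55.9, 82.8, 80.1 and 62.9 CPM in positive and 18.9, 34.1, 23.2 and 19.4 CPM in negative cells, a log2 fold of 1.52 ± 0.21 (SE, edgeR adjusted p = 0.00114). Pdcd1 was at 84.1, 59.5, 48.4 and 80.8 CPM against 49.9, 36.2, 21.4 and 38.4 CPM, a log2 fold of 0.86 ± 0.20 (adjusted p = 0.0268). Lag3 was at 111, 145, 165 and 155 CPM against 78.8, 96.5, 64.7 and 103.7 CPM, a log2 fold of 0.68 ± 0.16 (adjusted p = 0.0297). All 3 genes were higher in the positive cells of every mouse, and the 2 sets of values did not overlap for Tigit and Lag3. So 3 of the 10 genes passed as higher and none as lower, where 2.4% of the 13090 genes tested passed as higher, and the median log2 fold of the 10 was 0.65 against -0.05 over all genes. Pdcd1lg2 (50.8, 35.1, 48.4 and 29.5 against 23.9, 17.03, 8.96 and 19.8 CPM, adjusted p = 0.0594) and Cd274 (adjusted p = 0.179) were also higher in the positive cells of all 4 mice without passing the threshold. DESeq2 called 5 of the 10 and 3.28% of all genes, adding Pdcd1lg2 (adjusted p = 0.00599) and Cd200 (adjusted p = 0.0237). At an unadjusted p under 0.05 edgeR reached 7 of the 10 and 15.9% of all genes. Cd200 also passed edgeR without the treated mouse 2 (adjusted p = 0.0279), in which its positive cells had 8.54 CPM against 24.5, 34.7 and 49.9 CPM in the others.

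Of these calls, that of Tigit held under all 13 alternatives, with log2 folds of 1.43 to 1.79. Pdcd1 no longer passed without the untreated mouse 1 (adjusted p = 0.105), the untreated mouse 2 (0.0851) or the treated mouse 2 (0.134), and Lag3 no longer passed without any 1 of the mice (0.0623 and 0.0976 without the untreated mice 1 and 2, 0.0703 and 0.0738 without the treated mice 1 and 2). Without the mouse block Pdcd1 had an adjusted p of 0.0685, and with doublet calls kept Lag3 had 0.0564. Microglia transcripts were counted in 39.0% of CD4 T cells, and without those cells the log2 folds were 0.82 for Pdcd1 (adjusted p = 0.452), 0.60 for Lag3 (0.281) and 1.64 for Tigit (0.00657). Foxp3-positive cells were deeper, with median counts of 8166 to 9944 against 6105 to 7067, and with cells thinned to equal depth the log2 fold was 1.07 for Pdcd1 (adjusted p = 0.0747) and 0.64 for Lag3 (0.231). With the Nrgn and Lta cluster left out, so that Foxp3-negative cells were those of the Cd40lg and regulatory T cell clusters, the log2 fold of Lag3 was 1.60 (adjusted p = 7.6e-05).

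CD4 T cells with a count of Ifng or Csf2 had more Havcr2 than effector-negative cells, with 340, 481, 188 and 418 positive cells. Havcr2 was at 39.8, 32.7, 18.96 and 36.1 CPM against 9.91, 14.6, 1.23 and 13.1 CPM, a log2 fold of 1.80 ± 0.32 (SE, edgeR adjusted p = 0.0249). The values of positive and negative cells did not overlap. It was the only 1 of the 10 genes to pass, where 0.703% of 13515 genes passed as higher. At an unadjusted p under 0.05 there were 5 of the 10 and 11.5% of all genes. Lag3 was at 132, 133, 61.5 and 151 CPM against 37.9, 67.0, 64.8 and 60.1 CPM (adjusted p = 0.0674). It was higher in 3 mice and not in the treated mouse 1, and without that mouse its log2 fold was 1.36 (adjusted p = 0.00166), whereas without the untreated mouse 1, the untreated mouse 2 or the treated mouse 2 the adjusted p was 0.308, 0.284 and 0.295. Cd200r1 was at 40.3, 37.9, 44.2 and 33.9 CPM against 23.3, 26.2, 21.3 and 21.5 CPM, higher in all 4 mice with no overlap (edgeR adjusted p = 0.087, and 0.0351 with DESeq2). DESeq2 called 2 of the 10 and 1.26% of all genes, and 3 of the 10 had no adjusted p and could not be called. The call of Havcr2 was lost without the untreated mouse 1 (adjusted p = 0.181), the untreated mouse 2 (0.0854) or the treated mouse 2 (0.116), without the Nrgn and Lta cluster (0.103), at equal depth (0.115), without the mouse block (0.101) and without cells holding microglia transcripts (log2 fold 1.37, 0.424). Positive cells had median counts of 8014 to 8476 and negative cells 5419 to 5922.

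CD4 T cells with a count of Il17a (52, 169, 26 and 120 cells) gave no call among the 10 genes. edgeR passed 0 of the 10, where 0.137% of 11664 genes passed as higher and 0.18% in either direction. DESeq2 also called 0, against 0.412% of all genes, and gave 2 of the 10 no adjusted p. At an unadjusted p under 0.05 edgeR reached 2 of the 10 and 7.09% of all genes, and DESeq2 2 of the 10 and 3.98%. Cd200 was lower in Il17a-positive cells in every mouse (3.62, 1.79, 0 and 3.78 against 15.2, 6.20, 12.3 and 8.55 CPM, adjusted p = 0.594) and Pdcd1lg2 higher in every mouse (36.2, 14.8, 20.2 and 35.3 against 16.7, 12.3, 8.21 and 12.5 CPM, adjusted p = 0.666). The 2 sets of values did not overlap for Cd200 and overlapped for Pdcd1lg2. With 26 to 169 positive cells in a mouse, the Cd200 values there rest on few counts and lie near the floor. The positive cells also held Ifng, at 209.5 to 322 CPM.

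**Figure D3:**
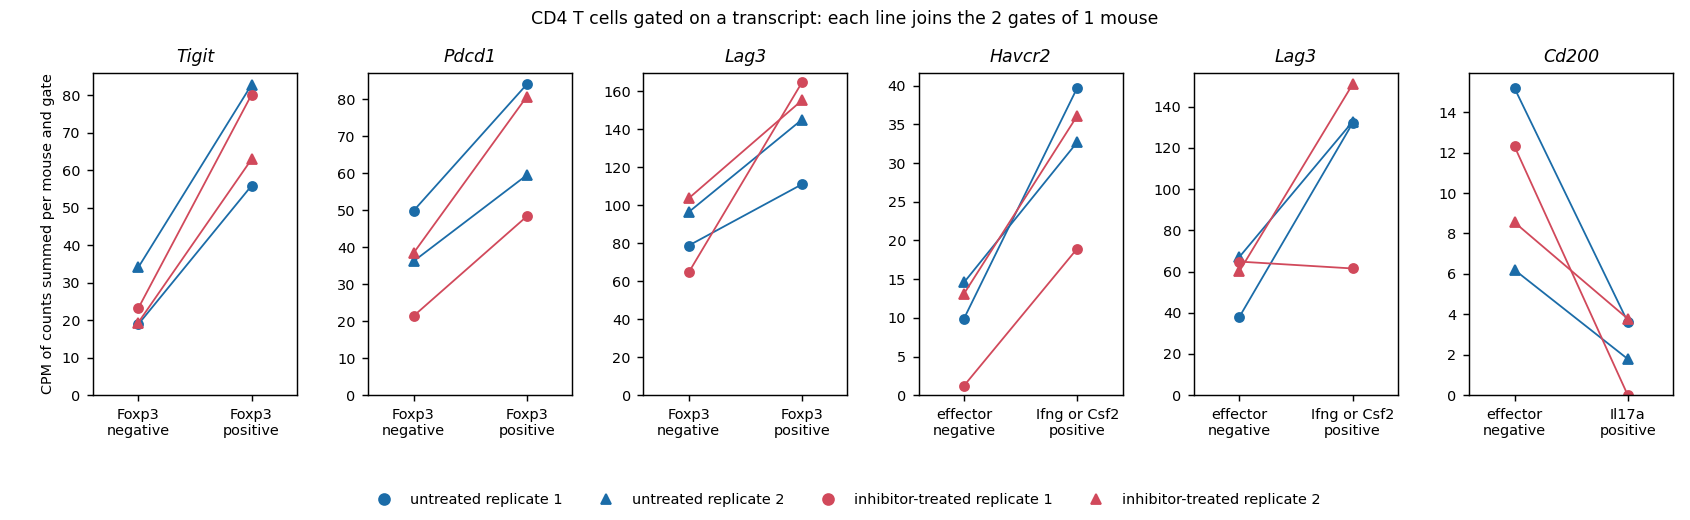
Level (CPM of counts summed per mouse and gate) of receptors and of Cd200 in gated CD4 T cells; each line joins the negative and the positive cells of 1 mouse. Tigit, Pdcd1 and Lag3 are higher in Foxp3-positive and Havcr2 in Ifng- or Csf2-positive cells in all 4 mice, and Lag3 is higher with Ifng or Csf2 in 3 of 4.

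Other receptors and ligands of these pathways were followed as lists. Of 39 partner receptors and ligands, 30 were tested in the Foxp3 comparison, where 4 were higher and 3 lower. Ctla4, the CD28 family inhibitor typical of regulatory T cells, was at 471 ± 44.7 (SD, n = 4) against 91.0 ± 11.1 CPM, a log2 fold of 2.32 (edgeR adjusted p = 2.19e-07). Klrg1 (146.5 against 12.5 CPM) and the costimulator Icos (1195 against 662 CPM) were higher, and Cd96, which shares ligands with TIGIT, was lower (73.6 against 162 CPM), as was the activating partner of TIGIT, Cd226 (106.8 against 217 CPM). In the Ifng or Csf2 comparison 3 of 30 were higher and none lower: Cd226 (287 ± 45.2 against 172 ± 11.5 CPM, n = 4), Lgals3 (311 against 163 CPM) and the lectin receptor Klrc1 (56.4 against 23.9 CPM). Klrc1 lost its call without the untreated mouse 1 (adjusted p = 0.0578), the untreated mouse 2 (0.0524) or the treated mouse 2 (0.0742), and without the Nrgn and Lta cluster (0.0937). Cd226 thus had a log2 fold of -1.10 with Foxp3 and 0.74 with Ifng or Csf2. None of 26 passed with Il17a, where edgeR gave 3 of them and 7.09% of all genes an unadjusted p under 0.05. Over all genes 4.69% passed with Foxp3, 1.09% with Ifng or Csf2 and 0.18% with Il17a, in either direction.

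Of 17 transcription factors of chronic T cell stimulation, 5 passed with Foxp3, 4 with Ifng or Csf2 and 2 with Il17a, where 4.69%, 1.09% and 0.18% of all genes passed. With Foxp3, 3 of 17 were higher and 2 lower: Tox, which sustains PD-1 expression in exhausted T cells (56.6 against 18.1 CPM), Maf (440 against 198 CPM) and Prdm1 (66.5 against 21.2 CPM) rose, and Id2 (684 against 1278 CPM) and the memory factor Tcf7 (137 against 280.4 CPM) fell. With Ifng or Csf2, 2 of 17 were higher, Id2 (1493 against 1141 CPM) and Nr4a1, an early T cell receptor response gene (298 against 198 CPM), and 2 lower, Tcf7 (181 against 387 CPM) and Id3 (12.8 against 29.4 CPM). With Il17a, 2 of 17 were higher, Nr4a1 (501 against 198 CPM) and Nr4a3 (131.5 against 34.1 CPM). Nr4a3 was at 269.8 CPM in the positive cells of the untreated mouse 1 and at 71.3 to 100.2 CPM in the others, and without the Nrgn and Lta cluster its log2 fold was 0.03 (adjusted p = 1) and that of Nr4a1 0.72 (0.335). Without the untreated mouse 1 the adjusted p was 0.247 for Nr4a3 and 0.122 for Nr4a1, and without the treated mouse 2 it was 0.207 and 0.0656. Nr4a3 also lost its call without the untreated mouse 2 (0.0577) and Nr4a1 without the treated mouse 1 (0.0586). Without the mouse block, with at least 2 counts of Il17a required or with doublet calls kept, Nr4a3 had 0.0695, 0.0824 and 0.0693. With Ifng or Csf2, Id3 lost its call whichever mouse was left out (0.209, 0.106, 0.0578 and 0.152), at equal depth (0.414), without cells holding microglia transcripts (0.313) and without the Nrgn and Lta cluster (0.0542), where Nr4a1 lost its call too (0.124). Tox lost its call at equal depth (log2 fold 1.25, adjusted p = 0.113). Median log2 folds of the list were -0.27, 0.21 and 0.27, against -0.05, -0.01 and -0.09 over all genes.

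Of 14 signalling proteins of these receptors, all were tested in the 3 comparisons, and 1 passed: Sh2d1a, the adaptor SAP, was higher with Foxp3 (125 ± 52.2 against 61.6 ± 5.9 CPM, n = 4; edgeR adjusted p = 0.0282). It lost its call without the untreated mouse 1 (0.169), the treated mouse 1 (0.099) or the treated mouse 2 (0.0699), at equal depth (0.249), without cells holding microglia transcripts (0.119) and with at least 2 counts of Foxp3 required (0.0792). Of the 20 interferon-gamma pathway genes, 19 were tested with Foxp3, where 5 were higher and 1 lower. Ifng itself was lower (109.8 against 387 CPM), and the cytokine Il10 (97.4 against 7.3 CPM) and the interferon-induced factors Irf8 (154 against 54.1 CPM) and Irf1 (363 against 214.5 CPM) were higher. In the other comparisons the single gene of this list that passed was Ifng, which defines the gates. Beside both lists, 4.69% of all genes passed with Foxp3, 1.09% with Ifng or Csf2 and 0.18% with Il17a, in either direction.

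The inhibitor comparison set 2 treated against 2 untreated mice within each class. None of the 10 genes passed the adjusted threshold of 0.05 in any of the 10 classes with edgeR. With so few mice, the lack of a call does not show a lack of change. Over all genes edgeR called 0.0% in 9 classes and 0.0109% (1 gene of 9167) in monocytes and macrophages. At an unadjusted p under 0.05, none of the members tested was reached in CD4 T cells (10 members, 4.27% of all genes), regulatory T cells (10 members, 4.21%), CD8 T cells (8 members, 4.84%), gamma-delta T cells (4 members, 4.95%), conventional dendritic cells (10 members, 3.55%), plasmacytoid dendritic cells (7 members, 3.68%) and mature B cells (4 members, 4.19%). It was reached by 2 of 6 in NK cells (4.27% of all genes), 3 of 9 in microglia (9.88%) and 1 of 6 in monocytes and macrophages (3.53%). DESeq2 called 0 of the 10 in every class, though in microglia 2 of the 10 had no adjusted p and could not be called. Of all genes it called 0.0077% in CD4, 0.0% in regulatory, 0.00955% in CD8 and 0.00518% in gamma-delta T cells. The share was 0.00493% in NK cells, 0.0046% in conventional and 0.0% in plasmacytoid dendritic cells. It was 0.54% in microglia, 0.0% in monocytes and macrophages and 0.00517% in mature B cells. At an unadjusted p under 0.05, DESeq2 reached 2 of 10 members in NK cells (1.68% of all genes), 4 of 10 in microglia (4.85%), 1 of 10 in monocytes and macrophages (1.45%) and 0 in the other classes.

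In microglia Lag3 had 362 and 497 CPM without and 747 and 624 CPM with the inhibitor, a log2 fold of 0.63 ± 0.25 (SE, edgeR adjusted p = 0.464). The groups did not overlap, but the gene was picked by its unadjusted p on the same mice, so this adds no support. Without cells holding T cell receptor transcripts Lag3 was at 329 and 596 against 758 and 779.7 CPM. Pdcd1lg2 was at 4.65 and 2.38 against 0.3 and 0.76 CPM (log2 fold -2.65 ± 0.81, adjusted p = 0.386), and Tigit at 4.20 and 8.80 against 0.3 and 2.46 CPM (-2.11 ± 0.81, adjusted p = 0.457). Both, picked like Lag3 by their unadjusted p, were lower in the treated mice, as were the T cell receptor transcripts given above. Between the untreated mice, Tigit was higher in mouse 2, as those transcripts were, and Pdcd1lg2 was lower. Without the cells that held those transcripts, Pdcd1lg2 had 0.54, 0, 0 and 0 CPM and Tigit 1.61, 0, 0 and 0 CPM. The cells left held 1858312, 507001, 1290502 and 1592951 counts in all, so a gene this low can read 0 there. For every 100 counts of Trac there were 0.88 to 2.90 counts of Tigit in microglia and 1.60 to 3.23 in CD4 T cells. The part of T cell transcripts in the values of Pdcd1lg2 and Tigit was not tested. Vsir (726 and 600 against 1160 and 808 CPM, adjusted p = 0.541) and Havcr2 (165 and 127 against 225 and 168 CPM, adjusted p = 0.636) were also higher in both treated mice without passing. Without the cells holding T cell receptor transcripts, Vsir had 907 and 840 against 1316 and 1041 CPM and Havcr2 200.7 and 183 against 256 and 200.9 CPM. The part of the higher microglia genes in these values was not tested.

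In NK cells Pdcd1lg2 had 14.8 and 57.5 CPM without and 6.22 and 2.59 CPM with the inhibitor (log2 fold -3.10 ± 0.86, edgeR adjusted p = 1), and the untreated mouse 2 stood far above the others. Vsir in NK cells had 103 and 184 CPM without and 75.8 and 83.3 CPM with it (-0.81 ± 0.33, adjusted p = 1). Cd274 in monocytes and macrophages had 72.2 and 43.7 CPM without and 8.95 and 25.2 CPM with it (-1.79 ± 0.63, adjusted p = 0.998). The groups did not overlap in any of these 3 comparisons. The genes were picked by their unadjusted p on the same mice, so this adds no support. T cell receptor transcripts were also lower in monocytes and macrophages of treated mice (361 and 409 against 151 and 129 CPM), and without the cells that held them Cd274 was at 57.4 and 113 against 14.5 and 17.1 CPM.

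In T cells, receptor levels of treated and untreated mice overlapped for some genes and not for others. In CD4 T cells Pdcd1 was at 52.4 and 32.7 against 21.0 and 38.9 CPM and Lag3 at 79.8 and 94.3 against 60.3 and 100.1 CPM. In regulatory T cells Lag3 was at 101 and 153 against 186 and 188 CPM, without overlap, and did not pass (adjusted p = 1). Tigit in regulatory T cells was at 65.6 and 95.9 against 84.5 and 64.1 CPM, with overlap. In CD8 T cells Lag3 was at 64.6 and 84.7 against 20.6 and 58.2 CPM, without overlap (adjusted p = 0.985). The median log2 fold of the members tested was -0.14 in CD4 T cells, 0.26 in regulatory T cells, -0.48 in CD8 T cells and -0.08 in microglia, where the median of all genes was 0, 0, 0 and 0.02. edgeR passed 0 genes of the partner, signalling, transcription factor and interferon-gamma lists in any class. At an unadjusted p under 0.05 a class had 0 to 10, 0 to 5, 0 to 5 and 0 to 5 of them. The most were 10 of 30 partner, 5 of 14 signalling and 5 of 17 transcription factor genes in microglia (9.88% of all genes). For the interferon-gamma list they were 5 of 17 in CD8 T cells (4.84%) and 5 of 16 in NK cells (4.27%).

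**Figure D4:**
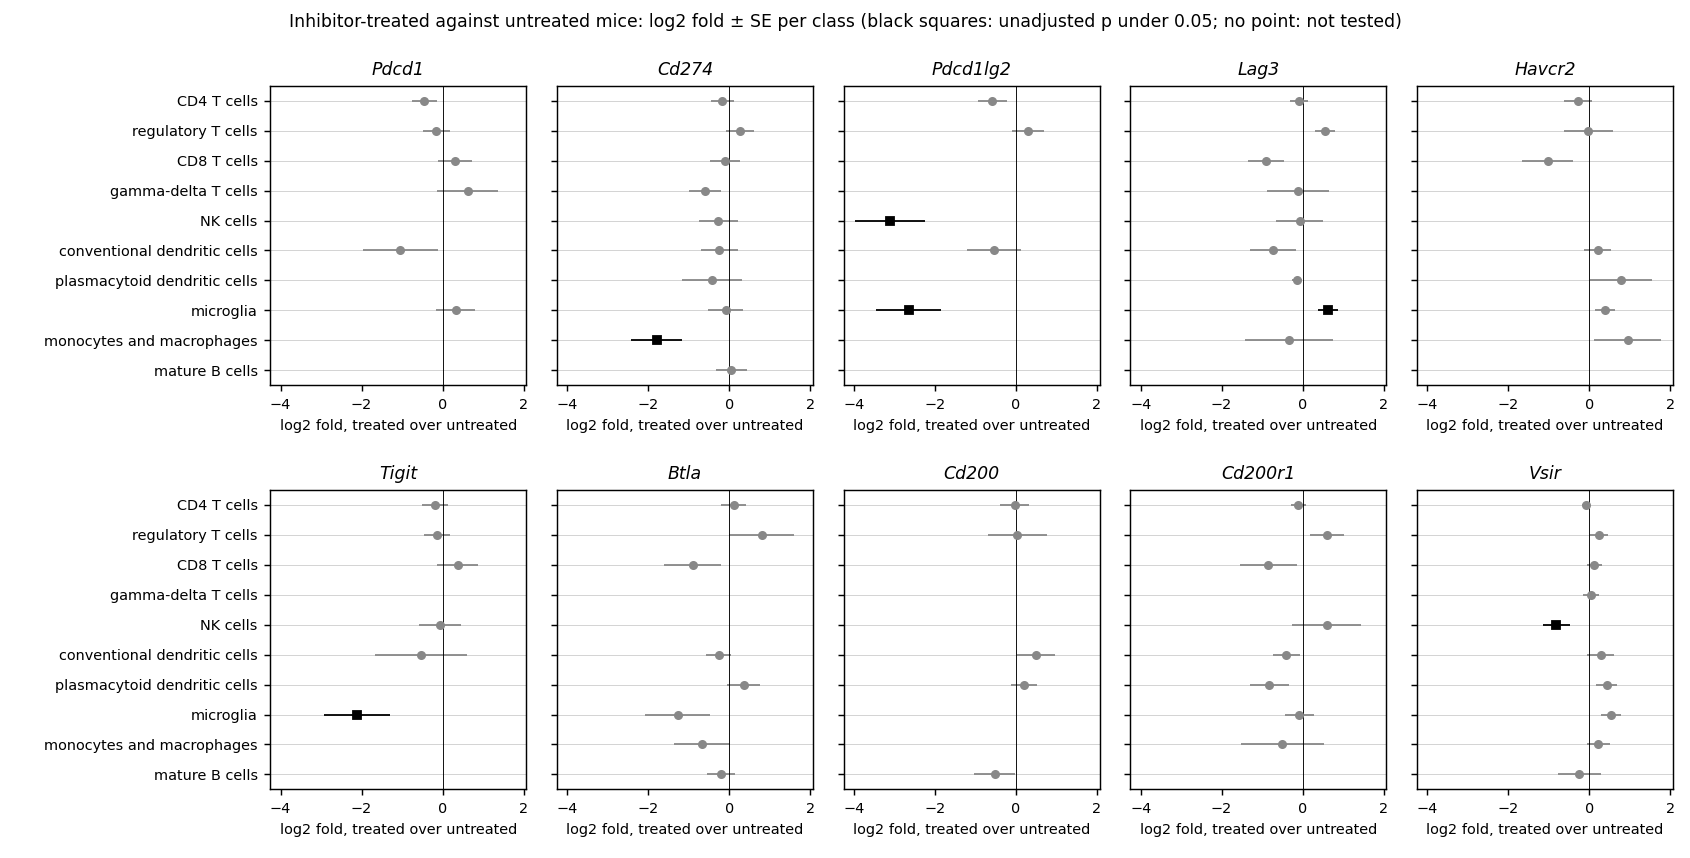
Log2 fold of inhibitor-treated over untreated mice with its SE, for the 10 genes in the 10 classes tested; black squares mark an unadjusted p under 0.05, and a missing point was not tested because its counts were too low. The 6 black squares are Cd274 in monocytes and macrophages, Pdcd1lg2 in NK cells and microglia, Lag3 and Tigit in microglia and Vsir in NK cells.

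The genes whose pattern over 18 classes was most like each member's were found among 12758 genes by Pearson correlation of mean log2(CPM + 1), a description in which all classes share the library and the mice. For Pdcd1 they were Sdcbp2 (r = 0.937), the T cell receptor component Cd3e (0.926) and Gstp3 (0.922). For Tigit they were Ppm1j (0.907), Sh2d1a (0.896) and Tnfrsf18 (0.891), the last the regulatory T cell receptor GITR. For Pdcd1lg2 they were Utf1 (0.92), Nr4a3 (0.892) and C230024C17Rik (0.889). For Havcr2 they were the phagocytic receptor Axl (0.889), Gm33858 (0.845) and Nrp1 (0.844), and for Lag3 they were Slc3a2 (0.88), Gna15 (0.86) and Aga (0.853). Cd274 was nearest to Trpv2 (0.862), Gm4070 (0.858) and Gvin1 (0.856), and Vsir to Arrb2 (0.859), Abcc5 (0.856) and Itm2b (0.841). Btla was nearest to Inpp5f (0.846), Gm15987 (0.839) and A530040E14Rik (0.838), Cd200 to Zc3h12d (0.813), Sema7a (0.801) and Pla2g4f (0.801), and Cd200r1 to Nudt22 (0.919), Crlf2 (0.796) and Gna15 (0.775).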

How the data were processed

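Single-cell RNA was captured on barcoded beads (BD Rhapsody) and amplified by the TAS-Seq protocol, per the labels' protocols. The authors deposited 1 matrix of raw counts, 28482 genes by 25461 cells, without normalization. GRCm38 is the genome build named in the submitters' processing notes. Aligner, counter and strand setting, and whether counts are molecules, are given by no source used here.

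From it, 3943 columns with more than 1 hashtag were left out, 1014 cells with over 20% mitochondrial counts, and 1248 cells that scored most like hashtag doublets among their neighbours. No barcode stood in more than 1 column. Cells were clustered without the 10 genes (2000 variable genes, 40 components, 20 neighbours, Leiden; igraph 0.11.9, leidenalg 0.10.2) and named from markers. Counts were summed per mouse and class and tested with edgeR 4.0.16 (filterByExpr, TMM, glmQLFit, glmQLFTest; R 4.3.3). DESeq2 1.42.0, other filters and scalings, mice left out, cells thinned to 2000 counts, and (chosen after seeing the data) cells with other-type transcripts or the Nrgn and Lta cluster left out were alternatives. The edgeR fits were tested on simulated data. In the inhibitor comparisons they recovered 0% to 30% of the 2-fold changes put in and 6% to 94% of the 4-fold ones, depending on the class. The members, lists and markers were chosen with earlier results of these data known. Genes named are the 10 members, with folds where the unadjusted p (inhibitor) or the adjusted p (gates) was under 0.05, up to 4 passing genes a list (Cd226 and Prdm1 beyond that were chosen after their values were seen), and the 3 most alike. The hashtag library was not analysed here.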

Additional observations from a re-analysis of the deposited data

Results flagged for a closer look

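For 5 genes both treated mice lay above both untreated mice in at least 1 class and below both in at least 1 other. The class with the largest ratio on each side is given, as the log2 ratio of the mean CPM + 1, treated over untreated. Lag3 had 0.67 in microglia and -0.90 in CD8 T cells. Havcr2 had 0.89 in monocytes and macrophages and -0.93 in CD8 T cells. Cd200 had 0.20 in plasmacytoid dendritic cells and -0.53 in mature B cells. Cd200r1 had 0.58 in regulatory T cells and -0.82 in plasmacytoid dendritic cells. Vsir had 0.57 in microglia and -0.84 in NK cells. Other classes without overlap were regulatory T cells for Lag3 (higher), microglia for Havcr2 (higher), plasmacytoid dendritic cells for Vsir (higher), and for Cd200r1 NK cells (higher), CD4 T cells (lower) and conventional dendritic cells (lower). Among all pairs of member and class tested, most had overlapping groups. With so few mice, groups can lie apart in either direction by chance, and the share of all genes that did so is not given here. Opposite directions in different classes are therefore a description and no sign of opposite responses to the inhibitor. The difference between the classes was not tested for any of these genes, and none of the changes passed the adjusted threshold.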

How the results depend on the processing

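None of the 10 genes passed in an inhibitor comparison under any alternative run. No member's fold with an unadjusted p under 0.05 (inhibitor) or a passing adjusted p (gates) changed sign. The signs of the other members' folds were not compared. The counts here are of all genes called. Replicate numbers are shared between the groups, but the deviations of same-numbered mice correlated at only -0.15 to 0.06 over the 10 classes. With a replicate block the counts were 0 in CD4 T cells, regulatory T cells and both dendritic classes, 3 in CD8 T cells, 4 in gamma-delta T cells, 5 in NK cells, 109 in microglia, 3 in monocytes and macrophages and 16 in mature B cells, against 1 in monocytes and macrophages and 0 elsewhere without it. Crossing the numbers in monocytes and macrophages (chosen after seeing the data) gave 0. With no filter on low counts the counts were 44 in CD4, 13 in regulatory, 29 in CD8 and 8 in gamma-delta T cells, 27 in NK cells, 20 and 10 in conventional and plasmacytoid dendritic cells, 455 in microglia, 9 in monocytes and macrophages and 29 in mature B cells. DESeq2 gave 2 in CD4 and 2 in CD8 T cells, 1 each in gamma-delta T cells, NK cells, conventional dendritic cells and mature B cells, 137 in microglia and 0 in monocytes and macrophages. Keeping doublet calls gave 8 in CD8 T cells and 0 in monocytes and macrophages, thinning gave 2 in CD8 T cells and 19 in microglia, and a limit of 10% mitochondrial counts or leaving out cells with transcripts of the other type gave 0 in monocytes and macrophages. Leaving out 1 mouse gave 0 to 6 in CD4, 0 to 2 in regulatory, 0 to 30 in CD8 and 1 to 3.1e+02 (3.0% of the genes tested) in gamma-delta T cells, 0 to 57 in NK cells, 0 to 18 and 0 to 87 in conventional and plasmacytoid dendritic cells, 0 to 575 in microglia, 4 to 32 in monocytes and macrophages and 0 to 28 in mature B cells.

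For the gates, the 614 genes of the Foxp3 comparison became 1064 with no filter, 320 without cells holding microglia transcripts, 696 without the mouse block and 346 to 587 without 1 mouse. The 147 of the Ifng or Csf2 comparison became 482 with no filter, 324 with DESeq2, 84 without the mouse block, 59 without cells holding microglia transcripts, 89 without the Nrgn and Lta cluster and 37 to 148 without 1 mouse. The 21 of the Il17a comparison became 106 with no filter, 102 with DESeq2, 18 without the mouse block, 4 without the Nrgn and Lta cluster and 3 to 14 without 1 mouse. The cause of these changes was not tested. Of 100 class levels of the 10 genes, 16 moved by more than 1 SD over mice with thinning, 15 without cells of other-type transcripts, 14 with doublet calls kept and 9 at the finer clustering.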

Other observations

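Neutrophils, which served as the background class for the T cell receptors, had Tigit at 4.51, 5.18, 3.90 and 3.60 CPM. For every 100 counts of Trac they held 21.5 to 38.3 counts of Tigit, where CD4 T cells held 1.60 to 3.23.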
